A study of Rattus norvegicus with 12 samples.

Results

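The transcripts described here are 10 genes of neutrophil granules and cytosol in rat lung, namely Mpo, Prtn3, Elane, Camp, Ngp, Fcnb, Mmp8, S100a8, S100a9 and Fpr1, out of 14919 gene symbols on the array. They were found by gene symbol, for 9 genes through the RefSeq name of the probe. The probe of Mpo was named through the authors' lists of probes that they had called in these data. Each of the 10 genes had 1 probe. Whole lung RNA of 12 male Sprague–Dawley rats aged 8 to 12 weeks was measured on single-colour Agilent arrays, 1 array per rat, in 4 groups of 3 rats. The control group breathed air and received saline, the CS + LPS group breathed cigarette smoke for about a month and had lipopolysaccharide instilled into the trachea on a pair of days, and the other groups had the same exposure after injections of NaHS, a salt that releases hydrogen sulfide, or of PPG, which blocks the hydrogen sulfide-forming enzyme CTH. The RNA came from 1 lobe of each lung, so a transcript level is an average over all cells of the lobe, and fewer neutrophils cannot be told apart from less RNA per neutrophil.

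Neutrophils are made in the bone marrow, and their granules are filled in sequence as the cell matures. Azurophil granules are formed first, at the promyelocyte stage, and hold myeloperoxidase and serine proteases. Specific granules follow, then gelatinase granules, and the calcium-binding proteins S100A8 and S100A9 fill the cytosol of the mature cell. The messenger RNAs of azurophil proteins are largely switched off before the cell leaves the marrow, whereas those of late proteins can persist in circulating neutrophils. Accordingly Mpo, Prtn3 and Elane are called early genes here, and S100a8, S100a9 and Mmp8 mature genes.

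The upstream sequences of 5 of these genes are shown because they represent the patterns described below, with Mpo and Prtn3 for the early genes, S100a9 and Mmp8 for the mature genes, and Fcnb for the largest rise. Each is the 250 bases before the transcript start in RefSeq on the build GRCr8, written 5′ to 3′ on the strand of the gene. Capitals mark matches on either strand to short motifs of 4 factors of granulocyte development, which are C/EBP (TTNNGCAA), PU.1 (GAGGAA), MYB (CAACNG) and RUNX (TGTGGT).
Mpo (chr10:73092152-73092401, + strand): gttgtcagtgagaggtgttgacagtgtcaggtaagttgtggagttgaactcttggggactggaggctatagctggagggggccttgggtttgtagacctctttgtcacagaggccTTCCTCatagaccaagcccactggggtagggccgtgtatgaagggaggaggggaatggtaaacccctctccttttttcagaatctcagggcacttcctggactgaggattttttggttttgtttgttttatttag
Prtn3 (chr7:10476197-10476446, - strand): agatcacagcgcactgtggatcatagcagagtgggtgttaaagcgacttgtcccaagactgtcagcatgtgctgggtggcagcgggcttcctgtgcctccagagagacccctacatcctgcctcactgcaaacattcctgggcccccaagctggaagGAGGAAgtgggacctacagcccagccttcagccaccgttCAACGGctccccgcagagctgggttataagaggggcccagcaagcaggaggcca
S100a9 (chr2:178490623-178490872, - strand): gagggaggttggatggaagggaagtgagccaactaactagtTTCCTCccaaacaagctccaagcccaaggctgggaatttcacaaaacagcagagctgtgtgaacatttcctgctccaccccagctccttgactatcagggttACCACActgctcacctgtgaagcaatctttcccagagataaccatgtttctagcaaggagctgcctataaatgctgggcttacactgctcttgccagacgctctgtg
Mmp8 (chr8:13008640-13008889, + strand): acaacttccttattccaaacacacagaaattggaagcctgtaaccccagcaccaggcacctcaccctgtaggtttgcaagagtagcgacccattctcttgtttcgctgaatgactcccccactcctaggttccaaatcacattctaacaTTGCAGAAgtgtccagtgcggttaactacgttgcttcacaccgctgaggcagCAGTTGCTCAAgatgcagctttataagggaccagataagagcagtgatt
Fcnb (chr3:31800189-31800438, - strand): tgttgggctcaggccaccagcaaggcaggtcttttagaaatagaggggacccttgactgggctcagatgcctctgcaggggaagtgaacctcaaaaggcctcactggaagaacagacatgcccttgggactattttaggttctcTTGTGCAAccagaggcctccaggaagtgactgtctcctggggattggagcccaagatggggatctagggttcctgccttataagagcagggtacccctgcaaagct

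In Mpo the single match was to the PU.1 motif, and Prtn3 held 1 match to PU.1 and 1 to MYB. S100a9 held 1 match to PU.1 and 1 to RUNX, Mmp8 held 2 matches to C/EBP, of which 1 overlapped a match to MYB, and Fcnb held 1 match to C/EBP. Of the 8 granule genes with an upstream sequence in the table, 3 held the C/EBP motif, 4 the PU.1 motif, 3 the MYB motif and 1 the RUNX motif. Among all 27456 upstream sequences of the same length, 9.2% held the C/EBP motif, 23.2% the PU.1 motif, 30.2% the MYB motif and 14.1% the RUNX motif. A match describes the letters only. In the RefSeq gene order S100a8 and S100a9 were neighbours on chromosome 2 with 0 coding genes between them, and Prtn3 and Elane were neighbours on chromosome 7, also with 0 coding genes between them.

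All levels below are log2 processed signals scaled to the 75th percentile of each array, which ranged from 1229 to 3261 before scaling, and levels of different probes are not compared. Between 66.0% and 75.5% of probes stood well above background on each array. The 12 arrays lay on 2 slides. All 3 CS + LPS arrays and control rat 3 shared a slide, and the other 8 arrays shared the other slide. The CS + LPS rats and the treated rats were thus never on 1 slide, and control rat 3 alone links them. In control rat 3 several of the granule transcripts stood apart from control rats 1 and 2, with Mmp8 lower by -2.46, Fpr1 by -1.70, S100a8 by -1.18, Mpo by -1.02, Fcnb by -0.96 and S100a9 by -0.94, and with Prtn3 higher by 1.80 and Camp by 0.33, whereas the median over all tested probes was 0.06. Whether this belongs to the rat or to the slide was not tested. Of the 10 transcripts 9 entered the test, which required a probe to be well above background in every rat of some group. A call needed a change of 2-fold or more together with p under 0.05 before adjustment in limma, and adjusted p-values are over all 21239 tested probes. The 3 comparisons with control share the same 3 control arrays.

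**Figure D1:**
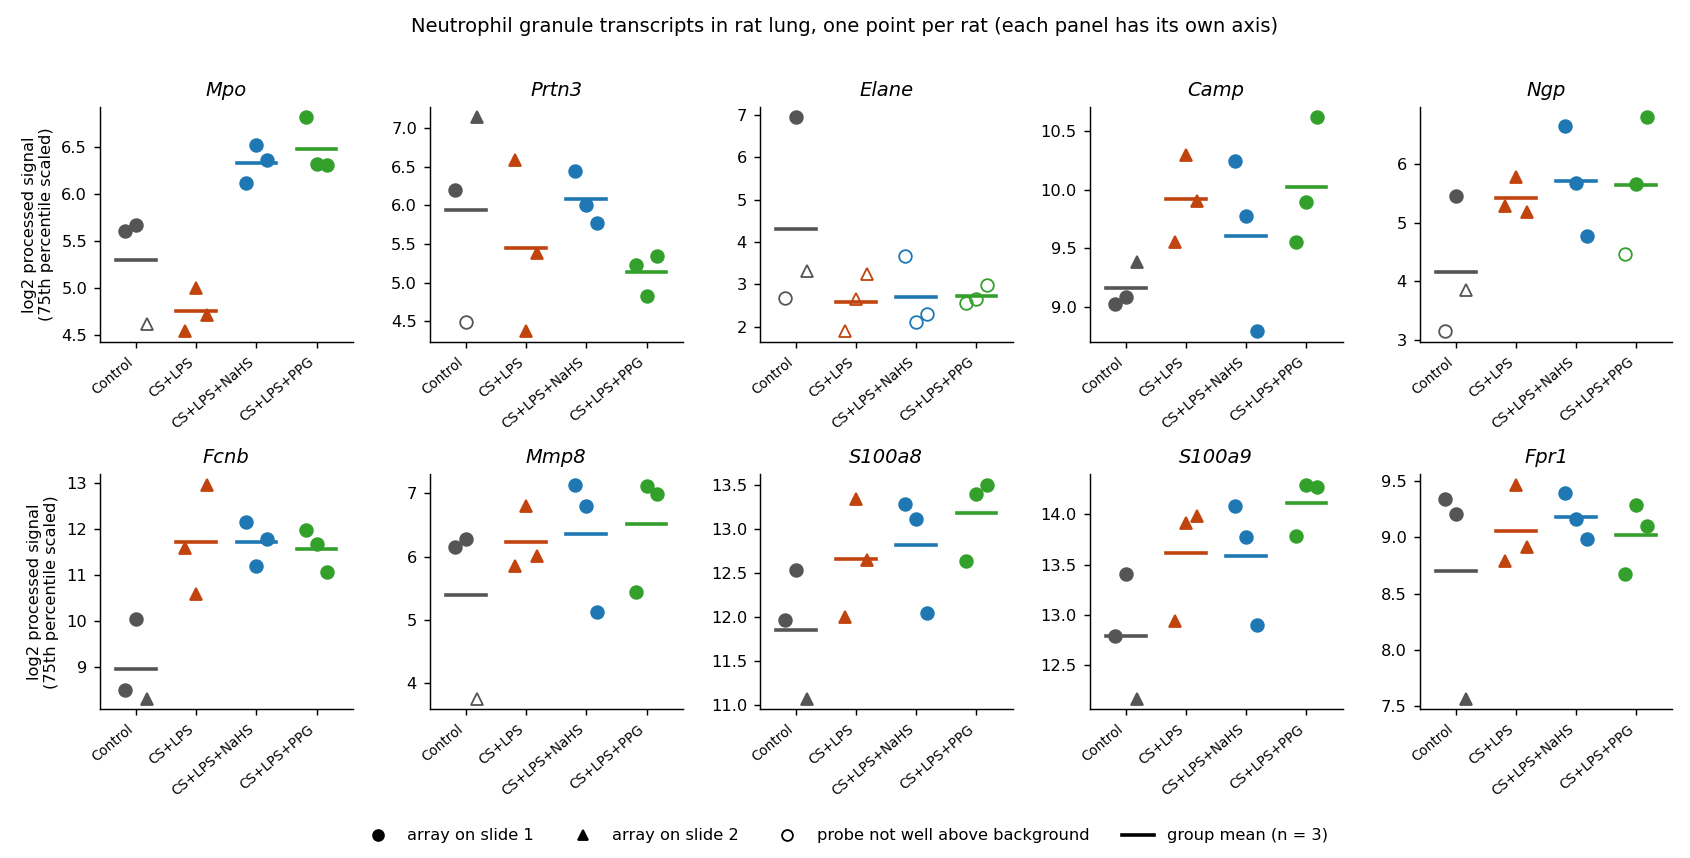
Log2 processed signal (vertical axis, 75th percentile scaled) of the 10 granule transcripts in each rat by group, with a triangle for the slide that holds the CS + LPS arrays and control rat 3, a circle for the other slide, an open symbol where the probe was not well above background, and a bar for the mean of 3 rats. Fcnb was higher in all 9 exposed rats than in the controls, Mpo was higher in the NaHS and PPG groups than in the other groups, and Elane was well above background on 1 array.

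Among the early genes, Mpo, which encodes myeloperoxidase, the enzyme that makes hypochlorous acid, was higher in both treated groups and not in the CS + LPS group. The log2 signal of Mpo was 5.60, 5.66 and 4.61 in control rats 1 to 3, and the last of these was not well above background. It was 4.54, 5.0 and 4.71 in the CS + LPS group, 6.11, 6.51 and 6.36 in the CS + LPS + NaHS group, and 6.81, 6.32 and 6.30 in the CS + LPS + PPG group. Thus all 6 treated rats were above all 3 control rats and all 3 CS + LPS rats, and the CS + LPS rats overlapped the controls through control rat 3. The probe was dim throughout, with processed signals from 23.2 to 112 on the scaled linear scale. Compared with the control group, Mpo was higher by 1.04 on the log2 scale with NaHS (standard error 0.27, adjusted p = 0.136 from limma) and by 1.19 with PPG (standard error 0.27, adjusted p = 0.0404 from limma), and in the CS + LPS group it differed by -0.54 (adjusted p = 0.232 from limma).

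Compared with the CS + LPS group, Mpo was higher by 1.58 with NaHS (95% confidence interval 0.98 to 2.18, adjusted p = 0.0300 from limma) and by 1.73 with PPG (1.13 to 2.33, adjusted p = 0.0206 from limma). The CS + LPS arrays and the treated arrays lay on different slides. With the slide as a block these differences were 0.56 (adjusted p = 0.226 from limma) and 0.71 (adjusted p = 0.136 from limma), so treatment and slide cannot be told apart here. Within the slide that holds both, Mpo was above control rats 1 and 2 by 0.70 with NaHS and by 0.85 with PPG, which is less than a 2-fold change, and the CS + LPS group was above control rat 3 by 0.14. With normexp background correction the differences from CS + LPS were 0.74 and 0.89 and those from control 0.14 and 0.28. Mpo did not differ detectably between the PPG and NaHS groups, at 0.15 (95% confidence interval -0.45 to 0.75).

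Prtn3, the serine protease proteinase 3 of the same granule, was not called in any comparison. Its log2 signal was 6.19, 4.49 and 7.14 in the controls, where the second was not well above background, and 6.58, 4.37 and 5.38 in the CS + LPS group. It was 6.44, 6.01 and 5.78 with NaHS and 5.23, 4.83 and 5.35 with PPG. The control rats alone spanned 2.65 on the log2 scale, so the differences from control of -0.50, 0.14 and -0.80 for CS + LPS, NaHS and PPG lay within their spread. The 3 PPG rats were below the 3 NaHS rats, a difference of -0.94 (adjusted p = 0.678 from limma), and 12.8% of all tested probes showed non-overlapping lower values in that comparison. Elane, which encodes neutrophil elastase, was measured by a single spot and was well above background on 1 of 12 arrays, at 6.93 in control rat 2. On the other 11 arrays its signal was between 1.90 and 3.67 and not well above background. No change is given for Elane alone, and mature minus early is given below with and without it.

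Of the transcripts of specific granules, Fcnb was called in each exposed group, Ngp with NaHS only, and Camp in none. Fcnb encodes ficolin B, a lectin that binds microbial sugars and starts the lectin pathway of complement, and it is made by neutrophil precursors and by monocytes. Its log2 signal was 8.50, 10.06 and 8.32 in the controls, 11.58, 10.60 and 12.96 in the CS + LPS group, 12.15, 11.20 and 11.79 with NaHS, and 11.98, 11.67 and 11.08 with PPG. Every one of the 9 exposed rats was above every control, as was so for 5.88% of all tested probes, and no other granule transcript showed this separation. The rise over control was 6.75-fold in the CS + LPS group (log2 change 2.76, 95% confidence interval 1.44 to 4.07, adjusted p = 0.0450 from limma), 6.75-fold with NaHS (2.75, 1.44 to 4.06, adjusted p = 0.119) and 6.14-fold with PPG (2.62, 1.31 to 3.93, adjusted p = 0.0398). Within slides the log2 differences were 3.40 against control rat 3 for CS + LPS, and 2.43 and 2.30 against control rats 1 and 2 for NaHS and PPG. Between the exposed groups the log2 differences of Fcnb lay between -0.14 and 0.00, with 95% confidence intervals that reached from -1.45 to 1.31.

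Camp, which encodes the antimicrobial peptide precursor cathelicidin, had log2 signals of 9.03, 9.08 and 9.38 in the controls, 9.55, 10.30 and 9.90 with CS + LPS, 10.25, 9.77 and 8.79 with NaHS, and 9.56, 9.89 and 10.62 with PPG. The CS + LPS and PPG rats were above all controls and NaHS rat 3 was below them. The log2 differences from control were 0.76, 0.44 and 0.86, under a 2-fold change. Ngp, a cystatin-like protein of specific granules, was well above background in 1 of 3 control rats, whose signals were 3.14, 5.46 and 3.85, and in 8 of 9 exposed rats, whose signals ranged from 4.46 to 6.80. Its differences from control were 1.27, 1.56 and 1.49, of which the one with NaHS was called (adjusted p = 0.276 from limma). With normexp background correction these fell to -0.10, 0.08 and 0.19, and the call with NaHS held in 7 of 22 alternatives. It was lost without any 1 of control rats 1 and 3, the CS + LPS rats, NaHS rats 1 and 2 or PPG rat 2, with changes from 1.05 to 1.57 and p from 0.0571 to 0.178 (limma).

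Mmp8, the neutrophil collagenase, was higher on average in every exposed group, but its control values spanned 2.52 on the log2 scale. The controls were at 6.15, 6.28 and 3.76, the last not well above background. The CS + LPS rats were at 5.86, 6.81 and 6.02, the NaHS rats at 7.13, 6.80 and 5.12, and the PPG rats at 5.44, 7.12 and 6.99. The groups overlapped, and the differences from control of 0.83, 0.95 and 1.12 (standard error 0.74 each) did not pass the test. Leaving out control rat 3 gave 0.01, 0.14 and 0.30, whereas the slide block and the fit within the slide, which compare the CS + LPS rats with that rat, gave 2.47 for CS + LPS, which was called (adjusted p = 0.0322 and 0.0275 from limma). The size of the change thus rested on control rat 3.

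S100a8 and S100a9, the subunits of calprotectin, which binds calcium and zinc and makes up much of the neutrophil cytosol, were called in the PPG group. S100a8 was at 11.97, 12.53 and 11.07 in the controls and at 12.63, 13.39 and 13.50 with PPG, where all rats were above all controls. It was at 11.99, 13.34 and 12.65 with CS + LPS and at 13.28, 13.12 and 12.04 with NaHS, groups that overlapped the controls. The differences from control were 0.80, 0.96 and 1.32 for CS + LPS, NaHS and PPG, and the last had an adjusted p of 0.0981 from limma.

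S100a9 was at 12.79, 13.41 and 12.16 in the controls, 12.94, 13.91 and 13.98 with CS + LPS, 14.09, 13.77 and 12.90 with NaHS, and 13.78, 14.29 and 14.27 with PPG. Again the PPG rats were all above the controls and the other groups overlapped them. The differences from control were 0.82, 0.80 and 1.33 (standard error 0.40 each), with an adjusted p of 0.0683 from limma for PPG. When control rat 3 was left out, the differences with PPG were 0.93 for S100a8, which was then not called, and 1.02 for S100a9, which was. Between the PPG and CS + LPS groups the differences were 0.51 for both S100a8 (95% confidence interval -0.51 to 1.54) and S100a9 (-0.37 to 1.38).

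Fpr1, the receptor through which neutrophils and monocytes sense formylated bacterial peptides, was not called in any comparison in the fit over all 12 arrays without a block. Its signal was 9.34, 9.21 and 7.57 in the controls and between 8.68 and 9.46 in the 9 exposed rats, which all lay between control rat 3 and, with the exception of CS + LPS rat 2 and NaHS rat 1, control rat 1. The differences from control were 0.35, 0.48 and 0.32, and without control rat 3 they were -0.21, -0.09 and -0.25. With the slide as a block, which sets the CS + LPS rats against control rat 3 alone, Fpr1 was called higher in the CS + LPS group (1.49, adjusted p = 0.00389 from limma) and lower than CS + LPS with NaHS (-1.58, adjusted p = 0.0174) and PPG (-1.74, adjusted p = 0.0126).

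**Figure D2:**
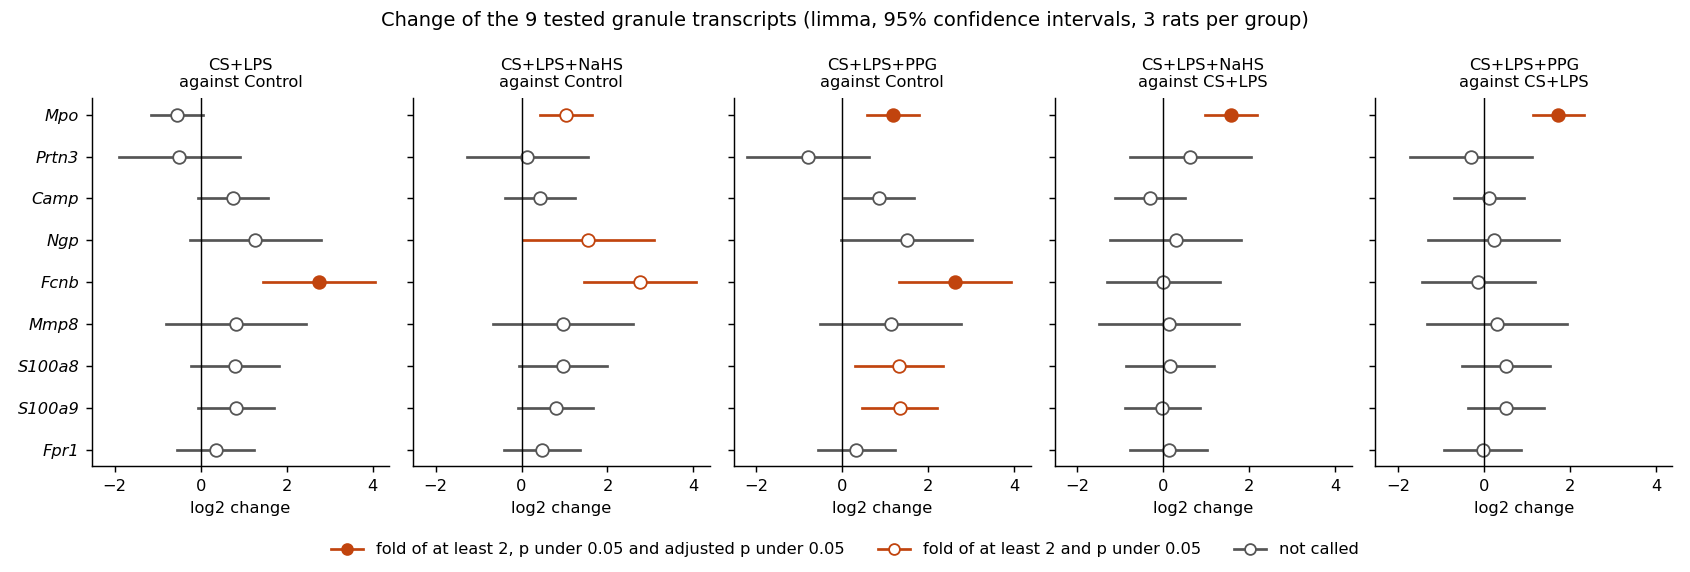
Log2 change (horizontal axis) with its 95% confidence interval for the 9 tested granule transcripts in 5 comparisons, 3 rats per group. Fcnb lay between 2.62 and 2.76 in the 3 comparisons with control, and Mpo was the only one called against CS + LPS, at 1.58 and 1.73.

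Counted over the 9 tested transcripts, 1 was called higher in the CS + LPS group (Fcnb), where 1.53% of all tested probes were, 3 with NaHS (Fcnb, Mpo and Ngp), where 1.35% were, and 4 with PPG (Fcnb, S100a8, S100a9 and Mpo), where 2.39% were. None was called lower, beside 3.07%, 1.23% and 1.92% of all tested probes. With an adjusted p under 0.05 these counts were 1, 0 and 2, beside 2.1%, 0.122% and 5.24% of all tested probes. The median log2 change of the 9 transcripts was 0.80, 0.95 and 1.19, and that of all tested probes was -0.06, 0.02 and 0.00. Of the 9, 7, 9 and 8 had a log2 change above 0, beside 44.5%, 52.4% and 50% of all tested probes. Non-overlapping higher values were seen for 2, 2 and 5 of the 9, beside 12.4%, 14.8% and 19.7% of all tested probes, and non-overlapping lower values for 0, beside 13.1%, 10.5% and 13.9%. Mpo, Ngp, Prtn3 and Mmp8 were well above background in every rat of some exposed group but not in every control rat. They entered the test through exposed groups, so their upward changes from control are not independent of that filter. Mpo could be named only because the authors had called its probe in these data, so its calls are not independent of theirs.

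Single rats moved the counts of calls against control. Without control rat 2, there were 5 calls in the CS + LPS group, 5 in the NaHS group and 6 in the PPG group, and in CS + LPS and PPG 1 of these was a fall of Prtn3. Without control rat 3, 1, 1 and 2 were called. Without CS + LPS rat 1, 3 were called for CS + LPS, and without NaHS rat 2 or NaHS rat 3, 1 or 5 were called for NaHS. Without PPG rat 3, the rat with the highest S100a8, Camp and Ngp signals, 3 were called for PPG (Fcnb, S100a9 and Mpo). Its summed signals were 7905 for markers of cycling cells, against 3012 to 5361 in the other rats, and 2745 for eosinophil markers, against 422 to 1074, and their part in the result was not tested. With the slide as a block, the counts were 5, 1 and 2. Fcnb was called in all 3 comparisons under each of the 23 alternatives, with an adjusted p from limma or the methods' t-test between 0.00961 and 0.400 in the CS + LPS group, 0.0461 and 0.338 in the NaHS group, and 0.0248 and 0.201 in the PPG group.

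Against the CS + LPS group, Mpo was the only transcript of the 9 that was called higher with NaHS, where 1.76% of all tested probes were, and with PPG, where 1.9% were, and none was called lower, beside 0.179% and 0.24%. It was also the only one with non-overlapping higher values, beside 14.6% and 12.6% of all tested probes, and none had non-overlapping lower values, beside 5.66% and 6.67%. Log2 changes above 0 were seen for 6 of the 9 with either treatment, beside 55.8% and 57.4%. The same transcript passed with an adjusted p under 0.05, beside 0.739% and 0.589% of all tested probes. Because Mpo was named through the authors' lists of called probes, these calls are not independent of the authors' calls on the same arrays. The changes of the other 8 lay between -0.32 and 0.63 in the NaHS group and between -0.31 and 0.51 in the PPG group. Between PPG and NaHS none of the 9 was called by limma or by the methods' t-test. Of all tested probes 0.301% were called higher and 0.198% lower. By limma over all 12 arrays without a block, none of the 9 had an unadjusted p under 0.05. For Prtn3, which fell short of a 2-fold change at -0.94, the methods' t-test gave an adjusted p of 0.350 and limma on these groups alone an adjusted p of 0.262, where the unadjusted values were under 0.05. Log2 changes above 0 were seen for 5 of the 9, beside 47.9% of all tested probes, and non-overlapping higher values for 0, beside 12.5%.

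**Figure D3:**
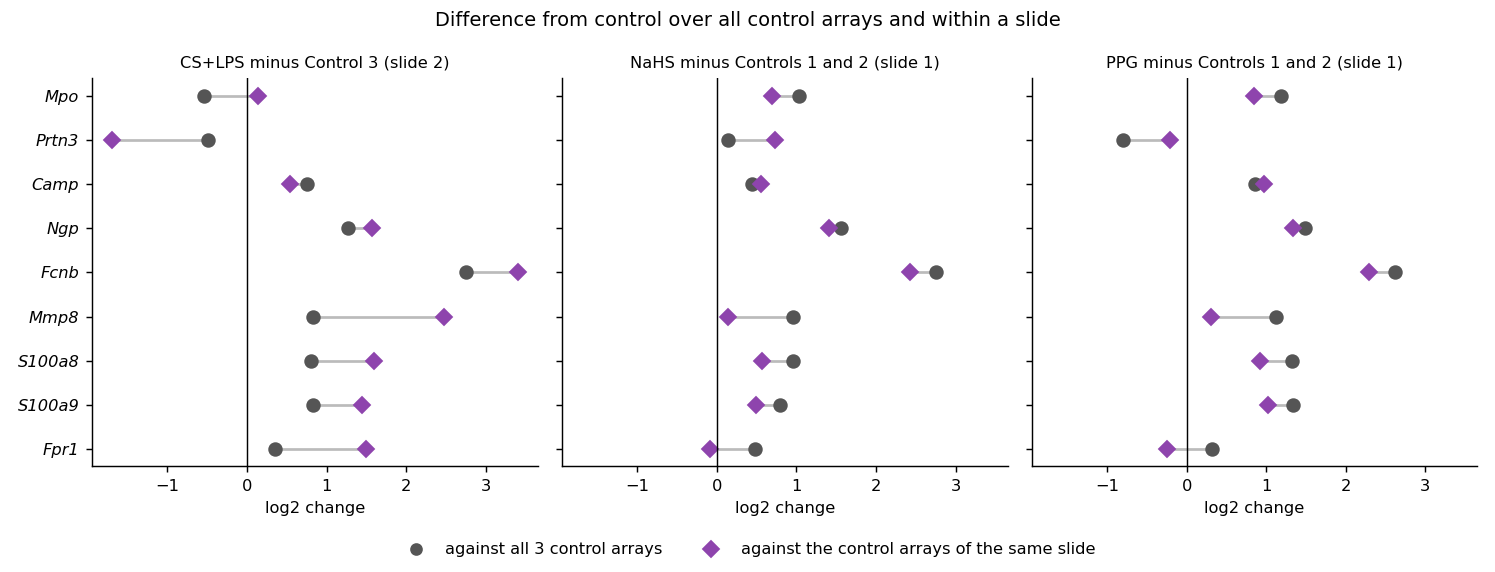
Log2 change from control (horizontal axis) of the 9 tested granule transcripts over all 3 control rats (grey circles) and over the control rats of the same slide only (purple diamonds). Fcnb stayed above 2 in all 3 groups, and Mmp8 moved most, from 0.83 to 2.47 in CS + LPS and from 0.95 to 0.14 with NaHS.

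The mature and early genes were then set side by side. In each rat the mean difference from the control mean was taken over S100a8, S100a9 and Mmp8 and over the early genes. The mature genes were at 0.29, 0.73 and -1.02 in the controls, 0.25, 1.34 and 0.87 with CS + LPS, 1.49, 1.22 and 0.01 with NaHS, and 0.61, 1.59 and 1.57 with PPG, so that 6 of the 9 exposed rats were above the highest control. Their group means were 0.82 ± 0.55, 0.90 ± 0.79 and 1.26 ± 0.56 (SD, n = 3) in the CS + LPS, NaHS and PPG groups, with an SD of 0.91 in the controls.

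Mpo and Prtn3 together were at -0.52 in the CS + LPS group, 0.59 with NaHS and 0.19 with PPG, and the 2 genes did not move alike, since Mpo was higher and Prtn3 lower than control with PPG. Mature minus early relative to control was first taken with Elane among the early genes, although its signal was mostly not above background. It was 1.74 in the CS + LPS group, 1.05 in the NaHS group and 1.65 in the PPG group. The fall of Elane in these values rests on control rat 2, the only rat in which it was well above background. Without Elane, mature minus early was 1.34, 0.32 and 1.06, beside an SD of 1.27 among the control rats. Against CS + LPS it was -0.69 with NaHS and -0.08 with PPG, or -1.02 and -0.27 without Elane. With the slide as a block the differences with Elane were -1.97 and -1.37.

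**Figure D4:**
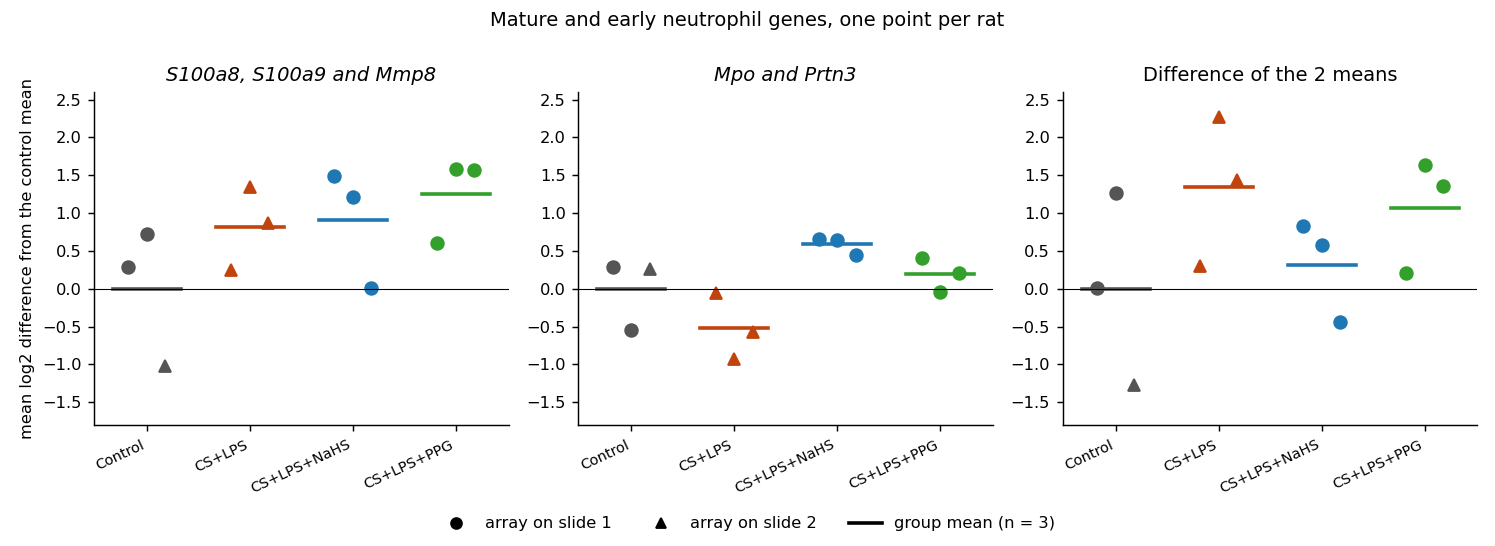
Mean log2 difference from the control mean (vertical axis) in each rat for S100a8, S100a9 and Mmp8 (left), for Mpo and Prtn3 (middle) and for the first minus the second (right), with bars for group means of 3 rats and symbols for the slides. The control rats alone span -1.27 to 1.26 in the right panel, and the CS + LPS rats lie between 0.31 and 2.27.

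Across the 12 rats the mature genes varied together and Mpo and Prtn3 did not. Elane was well above background on 1 array only. The probes of Mpo, Prtn3 and Mmp8 were dim, each well above background on 11 of 12 arrays. The part of noise near background in their r was not tested. Pearson's r was 0.96 between S100a8 and S100a9 (Spearman's rho 0.94) and 0.91 between S100a8 and Mmp8 (rho 0.82). Mmp8 also went with Fpr1, which is not one of the mature genes (r = 0.89, rho 0.79). After the group means were subtracted the r values of these pairs were 0.94, 0.92 and 0.89. Over the 8 arrays of 1 slide they were 0.97, 0.82 and 0.70. S100a8 also went with Ngp (r = 0.80) and Camp (r = 0.75), whereas r was -0.61 with Prtn3 and 0.54 with Fcnb, and Mpo and Prtn3 had r = -0.26. After subtraction of the group means these last were -0.65, 0.03 and -0.71, and over the 8 arrays -0.12, 0.51 and -0.0085, so they depended on the arrays and groups taken. These values describe 12 arrays that share groups, slides and scaling, and no test was made of them. Over 12113 named probes that stood well above background in all rats, the genes closest to S100a8 were S100a9 (0.96), Cd244l1 (0.93), Pdcl (0.93), Psmb5 (0.92) and Samsn1 (0.92). Those closest to Mpo were Arsj (0.94), Tmem104 (0.91), Vom2r35 (0.90), Vamp7 (0.90) and Ccdc69 (0.90).

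The other genes of the neutrophil programme were read from lists by granule and role. In the list of specific and gelatinase granules, which holds Camp, Ngp, Mmp8 and Fcnb, 7 of 15 tested genes were called higher in the CS + LPS group, 6 with NaHS and 7 with PPG, and none lower, with median log2 changes of 1.08, 1.00 and 1.22. Over all tested probes 1.53%, 1.35% and 2.39% were called higher and the medians were -0.06, 0.02 and 0.00, which apply to the lists that follow as well. Lcn2, which encodes the iron-siderophore-binding lipocalin 2 and is also made by airway epithelium, rose by 1.39, 1.49 and 1.78, and each of these passed with an adjusted p under 0.05 (0.0143, 0.0371 and 0.00647 from limma). Mmp9, the gelatinase, which was well above background on 9 of 12 arrays, rose by 1.07, 1.14 and 1.02. Cd177, a surface glycoprotein stored in specific granules, rose by 1.65, 1.00 and 1.68, and Slc11a1, a metal ion transporter, by 1.30, 1.14 and 1.19. Arg1, which breaks down arginine, and Ptx3, a soluble pattern receptor, were called in the CS + LPS group (1.11 and 1.08) and with PPG (1.25 and 1.22), and had 0.55 and 0.47 with NaHS. Without control rat 3 the counts were 4, 4 and 6, and Lcn2, Cd177 and Fcnb stayed called in each group while Mmp9 and Slc11a1 did not in any. Ltf and Olfm4, which encode lactoferrin and olfactomedin 4, were not well above background on any array.

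In the azurophil list Mpo, whose probe was named through the authors' lists of called probes, was the only one of 6 tested genes called in any comparison. The medians of this list against control were -0.12, 0.20 and 0.10. Ctsc, which activates the granule proteases, and Srgn, the proteoglycan core that packs them, differed from control by 0.35, 0.33 and 0.42 and by 0.39, 0.21 and 0.14. Ctsg, Bpi and Prss57 were not tested, and Ctsg and Prss57 were not well above background on any array. Among 8 tested genes of the cytosol list, 0, 0 and 3 were called higher, the third beside S100a8 and S100a9 being Serpinb1a, an inhibitor of the granule proteases (1.05 with PPG, adjusted p = 0.0452 from limma). Of 16 tested surface receptors 3 were called in each exposed group. These were Cxcr1, a chemokine receptor (1.51, 1.35 and 1.39), and the activating receptors Trem1 (1.54, 1.19 and 1.25) and Trem3 (1.49, 1.32 and 1.73), while Cxcr2 differed by 0.17, 0.07 and 0.12. Without control rat 3 the cytosol list had 0, 0 and 1 calls and the receptors had 2, 0 and 1, of which Trem3 was called in the CS + LPS and PPG groups. With the slide as a block 5 cytosol genes and 8 receptors were called higher in the CS + LPS group.

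Of 10 tested transcription factors of granulocyte development, Cebpe, which drives the specific granule stage, was called in the CS + LPS (1.01) and PPG (1.11) groups and had 0.88 with NaHS. Spi1, which encodes PU.1 and is shared with macrophages, was called in the CS + LPS (1.10) and NaHS (1.06) groups and had 0.84 with PPG. Klf5 was lower with PPG by -1.04. The others, among them Cebpa, Gfi1 and Runx1, were not called. Leaving out control rat 3, none of Cebpe, Spi1 and Klf5 was called in any group, and Irf8 was called higher with PPG.

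**Figure D5:**
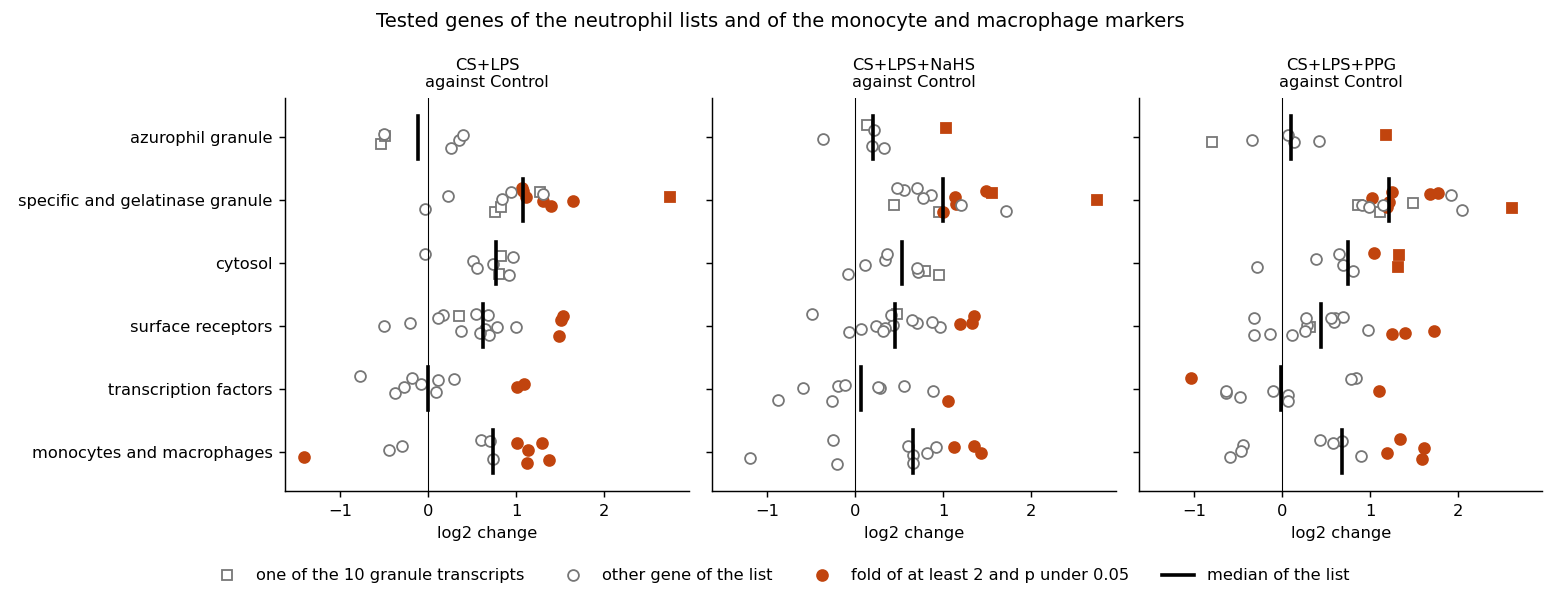
Log2 change from control (horizontal axis) of each tested gene in 5 neutrophil lists and the monocyte and macrophage markers, with squares for the 10 granule transcripts, filled red symbols for called genes and a bar for the median. The median of the specific and gelatinase granule list was 1.08, 1.00 and 1.22, and that of the azurophil list -0.12, 0.20 and 0.10.

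Monocytes and macrophages also express Fcnb, Fpr1, Spi1 and Slc11a1. Of 11 tested markers of these cells 8 had a log2 change above 0 in each comparison with control, and the CS + LPS group had 5 calls upwards and 1 downwards, the NaHS group 3 upwards and the PPG group 4 upwards. Their summed linear signal was 11982 to 15496 in the controls, from 21985 up to 29522 with CS + LPS, from 22366 up to 27190 with NaHS and from 22813 up to 26216 with PPG, so that the exposed and control rats did not overlap. Cd68, the macrophage lysosome marker, rose by 1.37, 1.43 and 1.34, and Ccr2, the receptor of inflammatory monocytes, by 1.14, 1.36 and 1.59. Cd163, a scavenger receptor of resident macrophages, was lower by -1.42, -1.20 and -0.59, with no downward call in the NaHS and PPG groups. Without control rat 3, 2, 3 and 3 markers were called higher, Cd68 in each group. The neutrophil lists were not restricted to genes that only neutrophils express. The part of monocytes and macrophages in the rise of Fcnb, Arg1, Ptx3 and the other called genes was not tested.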

How the data were processed

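Lung RNA of 12 rats was labelled with a single dye and hybridized to Agilent rat arrays. The authors deposited, for each array, the spot table of Agilent Feature Extraction (version 10.7 in the submitters' processing notes), whose processed signal is an intensity on a linear scale from which the background had already been subtracted. For 3 of the arrays the deposited intensity has fewer digits. Lists of called probes made by the authors in GeneSpring were also deposited. They hold fold changes, p-values and 60 columns of single samples, none of which were used, and they served only to name probes without a RefSeq match. Such probes, Mpo among them, could thus be named only where the authors had called them in these data. Groups came from the sample labels.

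Spots that the software marked as outliers were left out, spots of a probe were averaged, and log2 values were scaled to the 75th percentile of each array over all non-control spots. Probes that stood well above background in every rat of some group (21239 of 30367) were fitted over all 12 arrays with limma 3.58.1 in R 4.3.3 (files read with data.table, version 1.17.8), two-sided, with Benjamini-Hochberg adjustment over all of them. Probes were named through RefSeq on the build GRCr8 (17514 probes) or through the deposited lists (194 probes, among them Mpo), and 12659 had no name. The most intense tested probe stands for a gene. The fit was run on simulated data with independent noise and no slide effect, which cannot address the sharing of slides by groups.

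The genes named are the 10 granule transcripts, the genes of 5 neutrophil lists that were called, and the 5 probes with the highest r with Mpo and with S100a8. Genes that were not called and the markers of other cells were named from the same lists to show a role or a limit, after their values were seen. The transcripts and lists were chosen with earlier results of these data known. The p-values measure the spread between single rats within groups, which in the control group takes in the slide as well. A slide difference between the CS + LPS and the treated groups is not part of that spread. The number of arrays limits the precision.

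Alternatives were quantile normalization, the 75th percentile over probes detected in all rats, normexp with an offset of 50 (on the median signal, since these files hold no mean signal), outlier spots kept, the slide or the replicate number as a block, a fit within a slide, stricter or no filtering, a fit of each pair of groups alone, the methods' t-test, and leaving out each array. Mature minus early without Elane, and list counts without control rat 3 or with the slide as a block, were added after seeing the data. Replicate numbers did not pair the samples. Upstream sequences came from RefSeq, and S100a8 and Elane had no entry there.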

Additional observations from a re-analysis of the deposited data

How the results depend on the processing

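Fcnb was called against control in each alternative. The other calls moved with single control rats, with the slide and with normexp. Of 826 log2 changes recomputed, 730 kept their direction and side of the thresholds, 33 lost a call, 28 gained one and 35 changed sign, 2 of them with a call. The cause was not tested. Of the 374 recomputed values of the 17 other changes, 26 changed sign and 1 passed both thresholds. Signal over background limits Mpo, Ngp, Prtn3 and Mmp8, whose dim probes were not well above background on all arrays. In CS + LPS against control normexp moved Ngp from 1.27 to -0.10 and Mmp8 from 0.83 to -0.027. It moved Prtn3 there only from -0.50 to -0.47 and Mpo from -0.54 to -0.60.

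For CS + LPS against control, 2 transcripts were called after quantile normalization, 5 with the slide as a block, 6 within the slide and 1 to 5 when single arrays were left out. For NaHS the count was 1 with normexp, with the slide as a block, within the slide or over probes above background on all arrays, and 1 to 5 without single arrays. For PPG it was 2 with the slide as a block or within the slide, and 2 to 6 without single arrays. Against CS + LPS the NaHS count was 0 with normexp or with the filter on all arrays, which leaves out Mpo, and 3 with the slide as a block (Prtn3, Mmp8 and Fpr1). The PPG count was 0 with normexp or that filter, and with the slide as a block its 1 call was a fall of Fpr1 in place of Mpo. With the replicate number as a block the count was 1 for CS + LPS, 2 for NaHS, where the call of Ngp was lost (1.56), and 4 for PPG. Same-numbered rats did not deviate together (r from -0.31 to 0.14 over 18 pairs).

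Mature minus early with Elane was 2.59 for CS + LPS against control with the slide as a block and within the slide. For NaHS against control without Elane it was 0.32. Against CS + LPS, with Elane, it was -1.97 for NaHS and -1.37 for PPG with the slide as a block, and -0.41 to 0.30 for PPG without single arrays.

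With the slide as a block or within the slide, Mpo was 0.14 for CS + LPS, and Fpr1 was -0.090 for NaHS and -0.25 for PPG, against control. Against CS + LPS the slide block gave Mmp8 -2.33 and Fpr1 -1.58 with NaHS, and Mmp8 -2.17 and Fpr1 -1.74 with PPG. Normexp gave Ngp -0.10 and Mmp8 -0.027 for CS + LPS and Prtn3 -0.21 for NaHS against control, and Fcnb 0.023 for NaHS against CS + LPS. It moved the median of all probes to -0.16 in the comparison of CS + LPS with control. Quantile normalization gave Mmp8 -0.055 for NaHS against CS + LPS.

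Without single arrays, Prtn3 ranged from -1.22 to 0.10 for CS + LPS and -0.59 to 0.74 for NaHS against control, and Fpr1 from -0.21 to 0.67, -0.090 to 0.79 and -0.25 to 0.64 for CS + LPS, NaHS and PPG. Against CS + LPS, Fcnb ranged from -0.56 to 0.62 with NaHS and -0.70 to 0.49 with PPG, Mmp8 from -0.27 to 0.74 and -0.011 to 0.83, and Fpr1 from -0.010 to 0.33 and -0.17 to 0.17. For PPG against NaHS, Fcnb ranged from -0.39 to 0.11 and Mpo from -0.017 to 0.24. The mean over a gene's tested probes gave nothing else, since each granule transcript had 1 probe.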

Other observations

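Markers of other cells that a lung lobe holds were read beside the granule transcripts. Among mast cell markers, Cpa3, a carboxypeptidase, and Mcpt1, a chymase, were called higher in the CS + LPS group (1.65 and 1.85) and Tpsab1, a tryptase, was lower by -1.50, and their summed signal was 14833 on 1 CS + LPS array against 4481 to 6086 on the other 11 arrays. Of 3 tested eosinophil markers, 1 was called, the eotaxin receptor Ccr3 in the CS + LPS group (1.56), which was well above background on 8 of 12 arrays. Epx and Il5ra, which encode eosinophil peroxidase and the interleukin 5 receptor, were not well above background on any array. Of 4 tested platelet markers, Ppbp was called higher with NaHS (1.03). None of 6 red cell markers and none of 6 tested markers of cycling cells was called in any comparison by limma, with medians against control of -0.17, 0.14 and 0.35 and of 0.17, -0.06 and 0.19.

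Of 9 markers of lung epithelium and endothelium, 0, 2 and 0 were called against control, namely Cdh5, the cadherin of endothelial junctions, higher by 1.10 with NaHS, and Foxj1, the regulator of motile cilia, lower by -1.08 with NaHS. Their medians were -0.39, -0.32 and -0.31, and their summed signal was 892328 to 1482740 in the controls and 746279 to 926442 in the 9 exposed rats.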
